A study of Homo sapiens with 4 samples.

Results

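The signal transducers STAT3 and STAT5A and the serine/threonine kinases PIM1 and PIM2 were followed through 4 two-colour arrays of OCI-Ly3 cells. All probes that the platform's probe annotation assigns to these 4 genes were taken, without regard to their values: 10 of 15246 probes, 4 for PIM1 and 2 each for STAT3, STAT5A and PIM2. A value on every array was present for 9 of the 10, and the 4 genes are among 3589 so measured. OCI-Ly3 is an established human cell line from a diffuse large B-cell lymphoma, of the activated B-cell subtype. On each array, RNA of cells in which 20 ng/ml doxycycline had switched on a short hairpin RNA against IKKa (gene CHUK) was labelled with Cy5, and RNA of cells without doxycycline with Cy3. In the group with inhibitor, both channels had 12.5 uM of the IKKb inhibitor MLN120b, for 3 h in cells that had already had 2 days of doxycycline, or for the last 24 h of 3 days of it. In the group without inhibitor, neither channel had it, and doxycycline was given for 2 or for 3 days. The group with inhibitor thus holds 2 arrays, and so does the group without. No array of doxycycline in cells lacking the hairpin was analysed here, so any effect of doxycycline itself was not tested, and all comparisons rest on cells of 1 line.

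STAT proteins wait in the cytoplasm until a cytokine receptor and its Janus kinases phosphorylate them, and then move as dimers into the nucleus to switch on genes. PIM1 and PIM2 are among those genes. PIM kinases are active as soon as they are made, so how much kinase is made largely sets their activity. In lymphomas of the activated B-cell type, NF-kB raises interleukin 6 and interleukin 10, which in turn activate STAT3.

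STAT3 and PIM2 are the 2 genes of the set that passed the test described further on, and STAT5A is the 1 whose ratio with inhibitor had the opposite sign, so their promoters are shown. They run from 250 bases before to 50 bases after a start site in the RefSeq table (GRCh38.p14), 5′ to 3′ on the gene's strand. The STAT3 window lies at chr17:42388393-42388692 on the minus strand, the PIM2 window at chrX:48918975-48919274 on the minus strand, and the STAT5A window at chr17:42288248-42288547 on the plus strand. Capitals mark matches to the octamer ATGCAAAT (PIM2) or the kB consensus (STAT5A).
STAT3: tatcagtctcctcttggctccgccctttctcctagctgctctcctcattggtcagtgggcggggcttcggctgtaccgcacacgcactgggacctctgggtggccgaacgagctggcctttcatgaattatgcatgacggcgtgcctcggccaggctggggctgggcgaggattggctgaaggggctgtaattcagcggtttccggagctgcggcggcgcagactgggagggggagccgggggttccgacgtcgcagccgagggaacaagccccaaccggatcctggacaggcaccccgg
PIM2: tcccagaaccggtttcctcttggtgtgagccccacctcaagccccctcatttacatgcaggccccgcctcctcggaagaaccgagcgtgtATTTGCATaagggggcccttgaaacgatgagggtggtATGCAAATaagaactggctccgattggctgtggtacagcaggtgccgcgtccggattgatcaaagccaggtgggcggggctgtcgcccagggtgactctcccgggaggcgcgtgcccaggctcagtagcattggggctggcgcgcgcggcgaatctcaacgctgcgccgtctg
STAT5A: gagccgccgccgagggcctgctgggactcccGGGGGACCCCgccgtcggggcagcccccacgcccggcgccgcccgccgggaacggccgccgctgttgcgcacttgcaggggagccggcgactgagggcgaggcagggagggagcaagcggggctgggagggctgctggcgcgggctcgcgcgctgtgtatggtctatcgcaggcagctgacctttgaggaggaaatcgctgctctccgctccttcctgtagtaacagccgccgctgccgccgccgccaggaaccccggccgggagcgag

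Both strands of the 6 windows of the 4 genes were searched for the STAT element TTCNNNGAA, the kB consensus and the octamer, a motif of B-cell promoters that was added after the PIM2 sequence had been read. None of the 6 held TTCNNNGAA, which 7.66% of 35116 RefSeq windows of the same length hold. The kB consensus, present in 11.3% of windows, was found in 1 place, in the last of the 3 STAT5A windows, where its first base lies 219 bases before the start and it matches on both strands. The octamer, present in 1.77%, was found in 2 places in PIM2, with first bases 160 bases before the start (in reverse orientation) and 123 before it (in forward orientation), and in none of the other windows. These are matches of letters, and binding was not measured.

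Every value below is a log2 ratio of the 2 channels, read as doxycycline over no doxycycline, so a value below 0 means less transcript in the hairpin-induced cells. The file states neither base nor direction. Base 2 was taken because the values run from -5.61 to 7.49, and the direction is the likely one from the dye labels. CHUK, the target of the hairpin, then stood at -1.30 and -1.01 on the 3 h and 24 h inhibitor arrays and at -0.59 and -0.87 on the 2-day and 3-day arrays without inhibitor. That sign was itself used to settle the direction and does not test it. Turned round, every sign given here would turn with it. Array medians over all probes lay between -0.007 and 0, and pairwise correlations over all probes between 0.36 and 0.72. The spread over genes differed, with a median absolute deviation of 0.17 and 0.26 on the inhibitor arrays and 0.11 and 0.18 on those without. Ratios carry no expression level. As a coarse check of the cell type, 71.8% of the probes of 6 B-cell markers (28 of 39) had a value on every array. The share was 47.6% for T-cell (10 of 21) and 37.5% for myeloid markers (3 of 8). Among all probes with 1 gene, 6796 of 10169 had such a value, so the B-cell share was little above that of all genes. No marker gene was called in any comparison. Those with the largest absolute mean over the 4 arrays were, of each kind, BLNK and PAX5 (-0.21 and 0.10 with inhibitor, -0.23 and 0.07 without), CD3D and CD4 (0.24 and 0.19 with, 0.20 and 0.19 without), and CSF1R and ITGAM (0.61 and -0.31 with, 0.04 and -0.22 without). CD79A, a B-cell receptor subunit, had 0.20 with inhibitor and -0.16 without, whereas CD79B, another subunit, had -0.12 with and -0.004 without. Of the 6 B-cell markers, 4 were below 0 with inhibitor and 2 above.

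STAT3, which carries signals of the interleukin 6 and interleukin 10 families, was below 0 for both of its probes on all 4 arrays. Probe 31469_1 had -0.73 on the 3 h and -0.73 on the 24 h inhibitor array, against -0.66 and -0.22 on the 2-day and 3-day arrays without inhibitor. Probe 35314_1 had -0.26 and -0.88 with inhibitor, against -0.25 and -0.40 without. The probes thus differed most at 2 days, with and without inhibitor alike, and lay closer together at 3 days. The SD between them was 0.33 on the 3 h inhibitor array and 0.29 on the 2-day array, where 81.8% and 89.3% of the 1723 genes with several probes had a smaller one, against 0.10 and 0.13 on the 24 h and 3-day arrays. Among the 956 genes with 2 probes, 10.0% had all probe values below 0, as STAT3 did.

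Averaged over its probes, STAT3 stood at -0.49 on the 3 h and -0.80 on the 24 h inhibitor array, against -0.46 and -0.31 on the 2-day and 3-day arrays without inhibitor. All 4 values were negative, and the 3 h and 2-day arrays were only 0.04 apart. The mean was -0.65 ± 0.22 with inhibitor (SD, n = 2 arrays), 1.57-fold lower, and -0.38 ± 0.10 without, 1.30-fold lower. Only 3.57% of the 3589 genes had a lower mean with inhibitor and 6.94% without it.

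PIM2, a kinase abundant in B-cell and plasma cell tumours, was likewise below 0 as a gene on every array, but its probes parted on 1 of them. Probe 38053_1 had -0.63 and -0.65 on the 3 h and 24 h inhibitor arrays, against -0.38 and -0.36 on the 2-day and 3-day arrays without inhibitor. Probe 38229_1 had -0.47 and -0.47 with inhibitor, against -0.15 and 0.26 without. Tested as single probes, neither was called for a difference between the groups (limma adjusted p = 0.999 and 0.904). On the 3-day array the 2 probes had opposite signs, with an SD of 0.44 that exceeds the SD of 93.2% of the genes with several probes; on the inhibitor arrays it was 0.11 and 0.13, below the median of such genes (0.18 and 0.20).

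As a gene, PIM2 had -0.55 and -0.56 with inhibitor, the closest pair of any of the 4 genes, against -0.26 and -0.05 without. The difference between the groups was not called (limma adjusted p = 0.989). The means were -0.56 ± 0.0049 with inhibitor, 1.47-fold lower, and -0.16 ± 0.15 without, 1.11-fold lower (SD, n = 2 each). In the mean, 5.49% of genes were lower than PIM2 with inhibitor and 26.4% without.

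PIM1, the PIM family member first known as a site of retroviral insertion in mouse lymphomas, has the most probes. The 4 probes ran from -0.36 to 0.05 on the 3 h inhibitor array and from -0.65 to -0.31 on the 24 h array, against -0.24 to -0.12 on the 2-day and -0.41 to -0.04 on the 3-day array without inhibitor. Of their 16 values 15 were below 0, the exception being probe 17231_1 on the 3 h array. Probe 35728_1 ran apart from the others: it was the lowest of the 4 on the 3 h array, at -0.36, and the nearest to 0 on the 3-day array, at -0.04. The gene's ratio was -0.11 and -0.48 with inhibitor, against -0.18 and -0.30 without. The values without inhibitor lay between those with it, so the groups overlapped. The means were -0.30 ± 0.26 with inhibitor and -0.24 ± 0.08 without.

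STAT5A, which transmits signals of interleukin 2 and related cytokines, had probes that agreed least. Probe 29329_1, the only one with a value on all arrays, had -0.04 on the 3 h and 0.63 on the 24 h inhibitor array, against -0.16 and -0.30 on the 2-day and 3-day arrays without inhibitor. Only the value on the 24 h array lay clearly above 0. Probe 30027_1 had no value on the inhibitor arrays, and had -0.46 and 0.92 on the 2-day and 3-day arrays. At 3 days without inhibitor the 2 probes therefore differed by 1.22 and in sign. The values of STAT5A given from here on are those of probe 29329_1 alone, with a mean of 0.30 ± 0.47 with inhibitor and -0.23 ± 0.10 without. STAT5B is a close paralogue, and how far STAT5A probes also hybridise with its transcript is not known from the files.

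**Figure D1:**
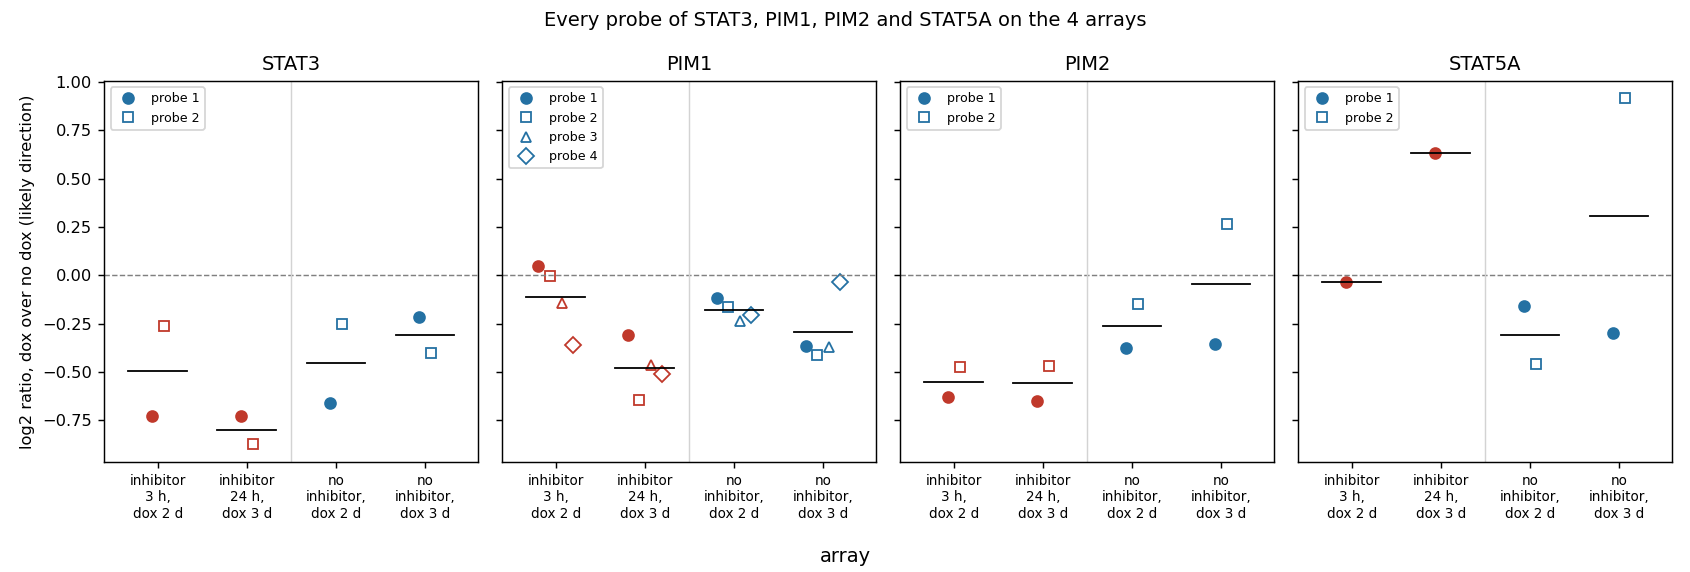
Log2 ratio (vertical axis) of each probe of STAT3, PIM1, PIM2 and STAT5A on the 4 arrays (horizontal axis; red with inhibitor, blue without); symbols are probes in order of their identifiers and black bars the mean of the probes that have a value. All 8 STAT3 values are below 0, the PIM2 probes take opposite signs on the 3-day array without inhibitor, and 1 STAT5A probe reaches 0.92 there with no value on the inhibitor arrays.

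Set within the spread of all genes on each array, the order of the members changed from array to array. STAT3 lay low on the 3 h, 24 h and 2-day arrays, where 5.02%, 3.90% and 3.12% of genes were lower, and less so on the 3-day array, where 18.8% were. PIM2 had 3.68% and 9.39% of genes below it with inhibitor, against 9.75% and 52.2% without, so on the 3-day array it was in the middle of all genes. PIM1 never came among the lowest 12% of genes. For STAT5A the share of genes below it was 47.0% and 92.8% with inhibitor, against 21.1% and 19.8% without.

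**Figure D2:**
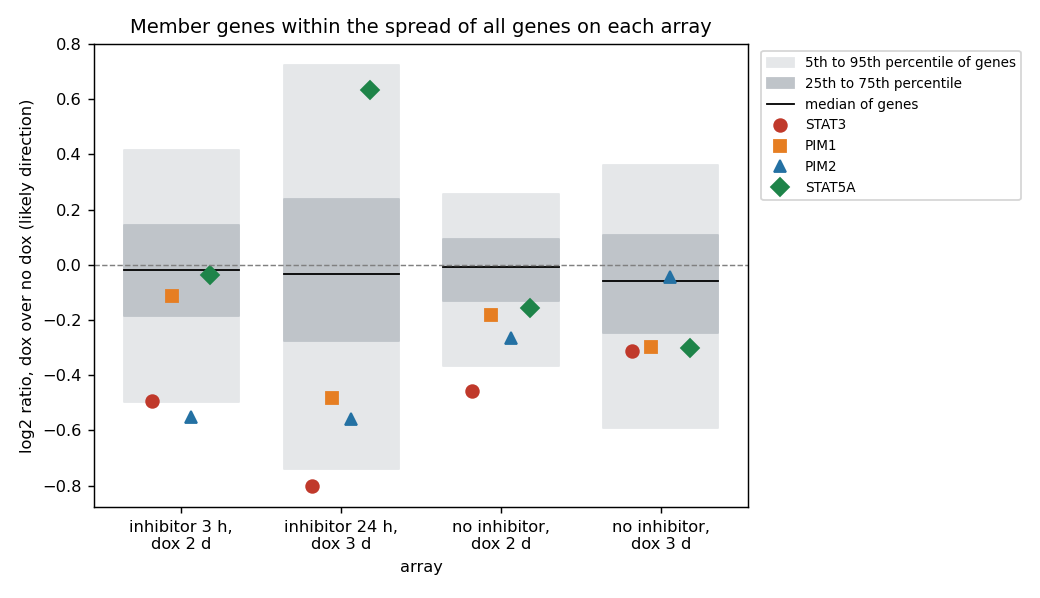
Log2 ratio of the 4 genes (symbols) on each array, over the 5th to 95th percentile (light) and the range between the quartiles (dark) of the 3589 genes, with their median as a line. STAT3 lies near or beyond the 5th percentile on the arrays other than the 3-day one without inhibitor, and STAT5A lies at 0.63 on the 24 h inhibitor array.

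The arrays with inhibitor ask what loss of IKKa does while IKKb is blocked. STAT3 and PIM2 fell, while PIM1 (-0.30) and STAT5A (0.30) did not pass. A single limma fit over both groups gave STAT3 -0.65 (SE 0.13, adjusted p = 0.0398) and PIM2 -0.56 (SE 0.12, adjusted p = 0.0456), with adjustment over all 3589 genes. Of all genes 3.04% were called lower and 1.53% higher. The adjusted p of PIM1 was 0.187 and that of STAT5A 0.289, and their 95% intervals ran from -0.61 to 0.01 and from -0.10 to 0.70. Tested as single probes, 31469_1 of STAT3 (adjusted p = 0.0147) and 38053_1 of PIM2 (0.0156) passed, while their partners 35314_1 (0.0506) and 38229_1 (0.0663) did not. Both calls lay close to the threshold and were lost without the 24 h inhibitor array (STAT3 -0.49, adjusted p = 0.149; PIM2 -0.55, 0.0895), without either array lacking inhibitor (STAT3 0.0814, PIM2 0.0926) and after centring each array on its median gene (STAT3 -0.62, 0.0546; PIM2 -0.53, 0.0604) or scaling the arrays to the same spread (STAT3 -0.52, 0.0651; PIM2 -0.46, 0.0779). PIM2's was also lost, at an unchanged -0.56, with probes that have empty cells let in (0.0549 and 0.0570 under the 2 rules tried). Without the 3 h array, STAT5A stood at 0.63, a value that is that of the 24 h array alone.

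The arrays without inhibitor ask the same while IKKb is active. None of the 4 genes passed, nor did any other: limma called 0 of 3589 genes (0%), while 400 (11.1%) had an unadjusted p under 0.05. CHUK, the target of the hairpin, was not called here either, at -0.73 (limma adjusted p = 0.155). A missing call in this comparison therefore does not show a missing effect. The count of 0 changed with the spread of the arrays: scaled to the same spread, 150 genes were called with inhibitor and 191 without it, and STAT3 stood at -0.52 with and -0.50 without (adjusted p = 0.0665). In the fit to the values as deposited, STAT3 was among the 400, at -0.38 (SE 0.13, 95% interval -0.68 to -0.09, limma adjusted p = 0.340). PIM1 stood at -0.24 (adjusted p = 0.557), STAT5A at -0.23 (0.669) and PIM2 at -0.16 (0.675). With its second probe averaged in, STAT5A had -0.31 and 0.31 on the 2 arrays and a mean of -0.00075, an average chosen after the values were seen.

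Whether the effect of the hairpin differed with the inhibitor is the difference of these means. No member passed, and limma called 0 of all genes (0%), with 173 (4.82%) at an unadjusted p under 0.05. PIM2 was among those, lower with inhibitor by a difference of -0.40 (95% interval -0.79 to -0.01, adjusted p = 0.989), and the difference was -0.29 between the arrays with 2 days of doxycycline and -0.51 between those with 3 days. STAT5A differed by 0.53 (-0.04 to 1.09, adjusted p = 0.989), made up of 0.12 at 2 days and 0.94 at 3 days. Without the 3 h array its difference was 0.86, which then rests on the 24 h array alone for the group with inhibitor. STAT3 differed by -0.26 (-0.69 to 0.16), with -0.04 at 2 days and -0.49 at 3 days, and by -0.01 once the arrays had been scaled to the same spread. PIM1 differed by -0.06 (-0.50 to 0.38), with 0.07 and -0.19, and had no settled sign: it was 0.07 once the arrays had been scaled to the same spread and 0.12 without the 24 h array. At 3 days the inhibitor had also been present for longer, so time of doxycycline and time of inhibitor cannot be told apart here. CHUK itself differed by -0.42 (-0.87 to 0.02, limma adjusted p = 0.989). Whether the depth of its loss bears on the differences of the members was not tested.

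Averaged over all 4 arrays, STAT3 and PIM2 again fell. A low average does not show that both groups share the fall. Without inhibitor alone, STAT3 (-0.38) and PIM2 (-0.16) did not pass. STAT3 had a mean of -0.52 (SE 0.09, adjusted p = 0.0240), 1.43-fold lower, and PIM2 -0.36 (SE 0.08, adjusted p = 0.0415), 1.28-fold lower. PIM1 was 1.20-fold lower at -0.27 (SE 0.09), with an adjusted p of 0.0987 that did not pass, and STAT5A was at 0.04 (adjusted p = 0.868). In this comparison limma called 8.47% of genes lower and 2.70% higher. The gene values of STAT3, PIM1 and PIM2 were below 0 on each of the 4 arrays, as were those of 25.8% of all genes. This average uses the same arrays as the comparisons above and is no separate evidence. The STAT3 and PIM2 calls were lost without the 2-day array (adjusted p = 0.0959 and 0.175) and without the 3-day array (0.163 and 0.217) of the group without inhibitor, and PIM2's after median centring (0.0583) and with probes that have empty cells let in (0.0532 and 0.0554 under the 2 rules tried). PIM1 passed with the day of doxycycline as a block (limma adjusted p = 0.0305), and stood at -0.36 without the 3 h array.

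**Figure D3:**
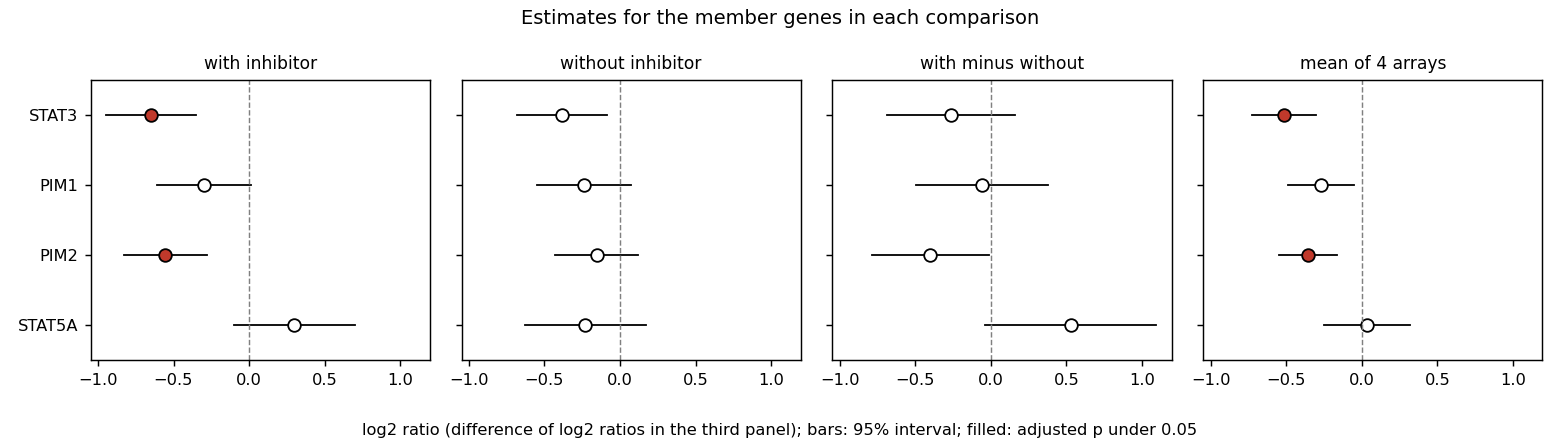
Estimate (point) and 95% interval (bar) on the log2 scale for the 4 genes in each comparison; filled points have a limma adjusted p under 0.05. STAT3 and PIM2 are filled with inhibitor and in the mean of the 4 arrays, and no point is filled without inhibitor or for the difference.

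The paralogues of the members ran in both directions. STAT5B, the closest relative of STAT5A, had -0.34 and -0.50 with inhibitor, against -0.22 and -0.03 without, by probe 16053_1, and -0.14 and -0.48 against 0.02 and -0.16 by probe 31397_1. On the 24 h array, then, both STAT5B probes lay near -0.5, where the STAT5A probe had 0.63. STAT4, which mediates interleukin 12 signals, was above 0 throughout, at 0.39 and 0.54 with inhibitor and 0.08 and 0.36 without, on 1 complete probe (adjusted p = 0.0728 with inhibitor). STAT6, the interleukin 4 transducer, had -0.06 and -0.07 with inhibitor, against 0.04 and -0.12 without. PIM3 was below 0 on all arrays, at -0.07 and -0.25 with inhibitor, against -0.09 and -0.10 without. Of the 5 measured STAT genes STAT3 was the 1 called, and of the 3 PIM genes PIM2, in the comparison with inhibitor, where 3.04% of all genes were called lower and 1.53% higher.

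Upstream of the STATs, 13 of 21 listed ligands were measured on all arrays, with a median of 0.17 with inhibitor and 0.05 without, against -0.01 and -0.03 over all genes. With inhibitor 9 of the 13 were above 0 and 4 below, and IL23A was the 1 called. Over all genes 1851 of 3589 were below 0 with inhibitor, and 1.53% were called higher and 3.04% lower. IL23A, the p19 subunit of interleukin 23, whose receptor signals through STAT3, had 1.17 and 1.13 with inhibitor. Without inhibitor it had -0.09 and 0.34 (mean with inhibitor 1.15, limma adjusted p = 0.0135, 1 probe). The difference of IL23A between the groups, 1.02, was not called (limma adjusted p = 0.989). IFNB1, interferon beta, did not pass (0.44 with, 0.09 without). IL6 (-0.27 with, -0.13 without) and IL10 (-0.02 with, -0.04 without), the ligands most tied to STAT3 in this lymphoma, did not pass either. Of 18 receptor genes, IL2RG, the shared chain of the interleukin 2 receptor family that acts through STAT5, fell with inhibitor, at -0.60 and -0.82, against -0.29 and -0.71 without (mean with inhibitor -0.71, adjusted p = 0.0414, 5 probes). That call did not hold without either array lacking inhibitor (0.0683) or after median centring (0.0546). For IL2RG too, the difference between the groups, -0.21, was not called (limma adjusted p = 0.999). The receptor median was 0.01 with inhibitor and -0.02 without. OSMR, the oncostatin M receptor, stood at 0.69 with and 0.38 without and was not called. JAK1 (-0.11 with, -0.12 without) and JAK2 (-0.16 with, -0.12 without), the 2 of 4 listed Janus kinases that were measured, did not pass.

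Among 12 measured brakes on the pathway none was called in either group, with medians of -0.07 with inhibitor and -0.04 without. SOCS6, a suppressor of cytokine signalling, had means of -0.26 with inhibitor and -0.26 without, and PIAS1, a SUMO ligase, of -0.16 with and -0.43 without. Of 22 known STAT target genes, 17 were below 0 with inhibitor and 14 without, with medians of -0.07 and -0.03; over all genes 1851 and 2007 of 3589 were. Of the 22, 1 was called with inhibitor, PIM2, itself one of the 4 genes followed here; over all genes 3.04% were called lower and 1.53% higher there. NAMPT, an enzyme of NAD synthesis with 12 probes, stood at -0.42 with inhibitor (adjusted p = 0.0940) and -0.28 without. Of 12 PIM substrates, 7 were below 0 with inhibitor and 11 without, and none was called. MYC had -0.52 with inhibitor (adjusted p = 0.0728) and -0.15 without, and CDKN1A, which encodes the cell-cycle inhibitor p21, -0.23 and -0.24.

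**Figure D4:**
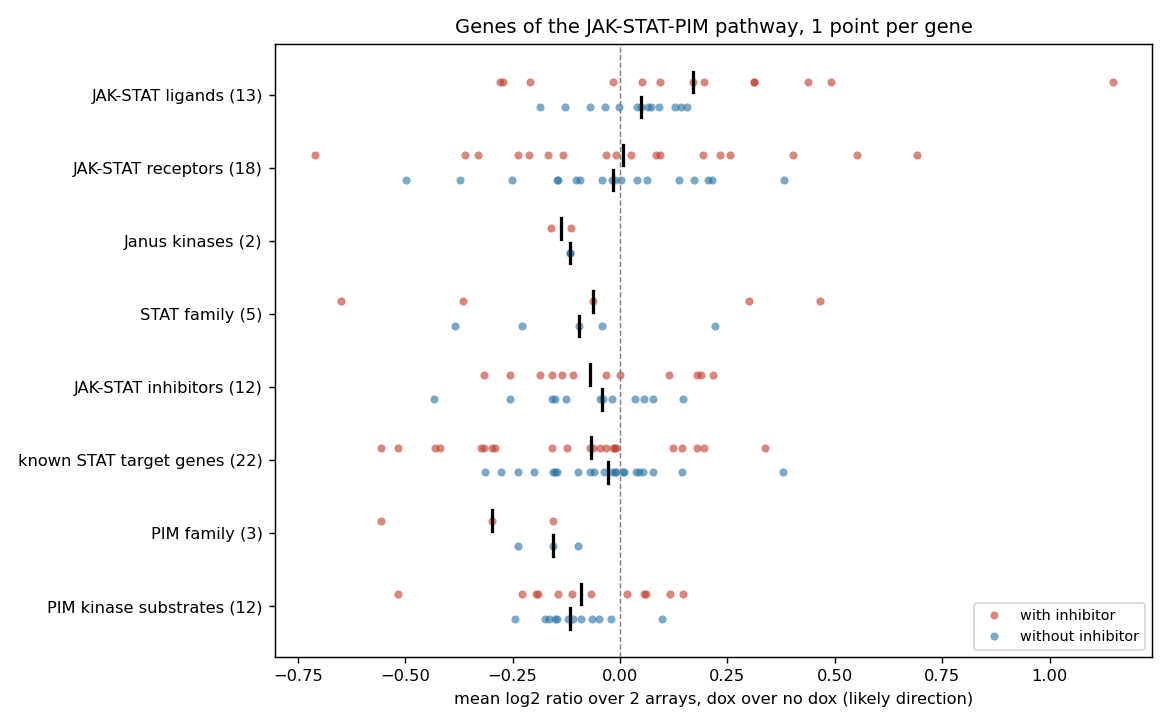
Mean log2 ratio over 2 arrays (horizontal axis) of each measured gene of 8 lists of the pathway, with inhibitor in red above and without in blue below; black ticks are medians and the number measured stands beside each name. The far right point is IL23A at 1.15 and the far left point is IL2RG at -0.71.

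The genes whose 4 ratios came nearest to each member were found among 1720 genes with 2 or more probes, by the root mean square difference over the arrays. For STAT3 they were TFRC (0.08), CDC27 (0.09) and ASPM (0.09), and for PIM2 MPHOSPH9 (0.06), RMI1 (0.07) and ATE1 (0.09). For STAT5A they were RGS1 (0.09), which had 0.04 and 0.75 with inhibitor against -0.09 and -0.21 without, CD38 (0.12) and CHD2 (0.17). PIM1 had SDHA, ACY1 and NEK6 at 0.02 each. Within a difference of 0.2 lay 27.1% of the candidates for PIM1, but 2.33% for STAT3, 2.09% for PIM2 and 0.988% for STAT5A, so the PIM1 pattern was a common one on these arrays.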

How the data were processed

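The deposited table holds 1 log2 ratio per probe and array, as the authors processed it; scale and direction are inferred. For background correction, normalization and empty cells, the method is not stated in any label or file header. Scanner signals were not analysed here and signal over background is unknown; precision is limited by having 4 arrays. Probes were named from the platform annotation (10169 of 15246 had 1 gene, 4 several, 5073 none), with symbols updated through RefSeq gene identifiers. Probes with a value on all 4 arrays were averaged per gene, giving 3589 genes. limma 3.58.1 in R 4.3.3 (lmFit, eBayes; 2 residual degrees of freedom, prior 4.98) fitted 1 mean per group. Tests were two-sided, with Benjamini-Hochberg adjustment over all genes and a threshold of 0.05. The fit was tested on simulated data.

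The 2 arrays of a group are different times, and nothing in the labels says that they came from separate cultures, so p-values measure the spread between these arrays. The 4 genes and the lists were chosen with earlier results of these data known. Named beside the members are list genes that passed and the 2 per list with the largest absolute mean over the 4 arrays. Named after their values were seen are IL6, IL10, CD79A, CD79B and the STAT and PIM paralogues. CHUK is named as the hairpin's target. Alternatives were median centring, scaling to equal spread, 2 other rules for probes with empty cells (1 chosen after seeing the data), the median of probes, single probes, the day as a block, a robust prior, an adjusted p under 0.10 and each array left out in turn.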

Additional observations from a re-analysis of the deposited data

How the results depend on the processing

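Of 208 values of the 4 genes under alternatives, 178 kept their sign and their side of the threshold, 19 lost a call, 5 gained one and 6 changed sign. Most of the 178 were not called to begin with. The calls with inhibitor held under 8 of 13 alternatives for STAT3 and 6 of 13 for PIM2. Those of the mean over 4 arrays held under 11 of 13 for STAT3 and 8 of 13 for PIM2. These tallies overstate how far the calls were tried. A threshold of 0.10 cannot lose a call, and the median of 2 probes is their mean. For STAT3 and PIM2 the single-probe alternative took the lower of the 2 probes. With inhibitor the other probe did not pass (limma adjusted p = 0.0506 for STAT3 and 0.0663 for PIM2). With inhibitor, STAT3 lost its call after median centring (-0.62) and scaling (-0.52), and PIM2 after median centring (-0.53), scaling (-0.46) and under both other rules for empty cells (-0.56). Averaged over the 4 arrays, PIM2 lost it after centring (-0.33) and under the rules for empty cells (-0.36), and PIM1 gained one (-0.27) with the day as a block and at an adjusted p under 0.10. Scaling turned the PIM1 difference (0.067) and the STAT5A mean over 4 arrays (-0.038). Called genes with inhibitor, 164 in the fit reported, were 109 after centring, 794 single probes, 908 with the day as a block and 590 at an adjusted p under 0.10. Without inhibitor, in place of 0, they were 191 after scaling, 70 single probes, 56 with the block and 6 at 0.10. For the difference, in place of 0, 4 were called under each other rule for empty cells. For the mean over 4 arrays, 401 became 638 after scaling, 1189 single probes, 1121 with the block and 836 at 0.10. The counts of single probes are out of 6796 probes, whereas the fit reported counts 3589 genes, so they cannot be compared directly.

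Leaving out each array in turn, called genes ranged from 34 to 858 with inhibitor, 0 to 231 without, 0 to 119 for the difference and 12 to 1074 for the mean. With inhibitor STAT3 ranged from -0.80 to -0.49, PIM2 from -0.56 to -0.55, PIM1 from -0.48 to -0.11 and STAT5A from -0.035 to 0.63. Without it they ranged from -0.46 to -0.31, -0.26 to -0.05, -0.30 to -0.18 and -0.30 to -0.16 in the same order. Differences ranged from -0.42 to -0.11 (STAT3), -0.51 to -0.29 (PIM2), -0.24 to 0.12 (PIM1) and 0.19 to 0.86 (STAT5A). Means over the 4 arrays ranged from -0.59 to -0.44 (STAT3), -0.41 to -0.30 (PIM2), -0.36 to -0.18 (PIM1) and -0.13 to 0.20 (STAT5A), which was -0.00075 without the 2-day array. A group left with 1 array is assumed to vary like the other. With either inhibitor array left out, the 4 genes also all had the same SE, 0.20 for the mean with inhibitor. The spread of each gene then did not count. Calls gained or lost in those fits, and their counts of called genes, rest on that common SE. The cause of these changes was not tested. No paired analysis by replicate was possible because the labels carry no replicate numbers; the block above is the day of doxycycline.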

Other observations

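Several probes of the pathway's genes lacked a value on 1 or more arrays and were left out of the fit reported. They could enter only under the other rules for empty cells. Among them, JAK1 probe 30184_1 had 0.28 on the 24 h inhibitor array, against -0.69 on the 2-day and 0.65 on the 3-day array without inhibitor. The incomplete STAT5A probe 30027_1 likewise was lower on the 2-day than on the 3-day array (-0.46 and 0.92). JAK2 probe 30693_1 had -1.01 on the 24 h inhibitor array, against -0.33 and -0.25 on the 2-day and 3-day arrays, while the complete JAK2 probe 17330_1 had -0.23 on the 24 h array. STAT4 probe 27080_1 had 0.48 and 0.39 with inhibitor, against 0.20 on the 2-day array, and probe 26087_1 had 0.07 and 0.20 on the arrays without inhibitor, so all values of the 3 STAT4 probes were above 0.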
